A study of Mus musculus with 4 samples.

Results

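The genes of the cytosolic ribosome were followed through the first week after muscle injury in a mouse model of heterotopic ossification (HO), the formation of bone in soft tissue. The members were chosen by their symbols in the feature list (Rpl or Rps followed by a number, with Rplp0, Rplp1, Rplp2 and Rpsa, and without processed copies marked -ps) and by their measured values, at least 10 UMIs (unique molecular identifiers, each standing for 1 captured RNA molecule) summed over all sections. This gave 82 of 32285 features, 50 of the large and 32 of the small ribosomal subunit. The symbol rule found 83 genes. Rpl39l, with 205 UMIs, was the member nearest the threshold, and Rpl10l, with 2 UMIs, was the symbol left out.

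The 4 sections, cut from frozen tibial muscle and captured for spatial RNA sequencing, came from Nse-Bmp4 mice of strain C57BL/6, aged 6 to 8 weeks, in which a Bmp4 transgene is driven by the neuron-specific enolase promoter. All groups carried this transgene, so the series holds no section from a mouse without it. One section was uninjured (day 0) and the others were taken at 1, 3 and 7 days after injury of the muscle with cardiotoxin, 1 section per day. The labels speak of 3 tibial muscles mixed per group, which the study's methods state for its single-cell assay, and whether this holds for the sections was not settled. With 1 section per day no test between days was possible, the values carry no replicate error, and every interval given is a 95% interval for counting error only. The sections held 2107 to 3032 capture spots and 16777832 to 56113066 UMIs. Day 1 was the shallowest, with a median of 6322 UMIs per spot against 21029 at day 0, and 513 of its spots had under 2000 UMIs. Pairs of sections shared 1539 to 2311 barcodes, which are positions on the capture array and not shared cells. Muscle RNA was present throughout: 0 of 17 adult myofibre genes (among them Acta1, Ckm and Myh4) were without UMIs in any section, and together they took 28.5%, 15.4%, 9.401% and 16.5% of all UMIs on days 0, 1, 3 and 7. A spot covers several cells, so fewer cells of a type and less RNA per cell cannot be told apart.

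A cytosolic ribosome joins a small subunit, which decodes the mRNA, with a large subunit, which forms the peptide bond, and its proteins are made in matched amounts. Their mRNAs are known as TOP mRNAs because they begin with a C followed by a stretch of pyrimidines (a terminal oligopyrimidine tract), through which the kinase mTOR and the RNA-binding protein Larp1 control their translation. A few members have a second gene copy with its own tissue pattern. In striated muscle the best known is Rpl3l, which stands in for Rpl3, the protein closest to the peptidyl transferase centre of the large subunit.

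The start sites of several members are shown because the pyrimidine tract gave these mRNAs their name. Rpl3l is shown as a member without such a run in this search, as were others, among them Rpl10, Rpl12 and Rps2. RefSeq promoter sequences (GRCm38.p6) were matched for 62 of the 82 members. Each line gives 30 bases centred on an annotated start, read 5′ to 3′ on the gene's strand, with the bases from position 16 on transcribed. Capitals mark a run of 8 or more pyrimidines that begins with C, on either side of the start. The run in the Rpl19 window ends before position 16 and so lies upstream of that annotated start.
Rps18, chr17:33955651-33955680, minus strand: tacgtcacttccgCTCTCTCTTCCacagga
Rps10, chr17:27635230-27635259, minus strand: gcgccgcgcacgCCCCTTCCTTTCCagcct
Rpl13a, chr7:45128731-45128760, minus strand: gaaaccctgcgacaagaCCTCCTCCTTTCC
Rpl19, chr11:98026909-98026938, plus strand: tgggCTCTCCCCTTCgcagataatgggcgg
Rps9, chr7:3704026-3704055, plus strand: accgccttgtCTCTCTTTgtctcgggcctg
Rpl41, chr10:128549154-128549183, minus strand: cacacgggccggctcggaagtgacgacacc
Rpl3l, chr17:24727811-24727840, plus strand: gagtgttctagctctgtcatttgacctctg
Such a run lay within 30 bases of an annotated start in 34 of 62 members (54.8%), against 20.6% of all 27025 genes of the table, and on the opposite strand in 11.3% of members against 23.4% of genes. Rpl3l had no such run at either of its annotated starts, and neither did the Rpl41 start shown. The letters CCGGAAG, the core bound by ETS factors, were found on either strand of the 300 bases around the start in 41.9% of members and 9.93% of genes. On its reverse strand this core holds pyrimidines and can overlap the tract. AAGATGG, the core of the YY1 motif, was found in 16.1% of members and 7.28% of genes. CAGCTG, an E-box that reads the same on both strands and is bound by myogenic factors, was found in 3 of 62 members (4.84%), Rpl3l among them, and in 18.3% of genes. A match describes the letters of the window and not a bound site. Members with and without the tract had like changes: among members with at least 1000 UMIs, the median log2 ratio to day 0 was 1.37 with it (n = 33) and 1.32 without it (n = 28) at day 1, 1.66 and 1.66 at day 3, and 0.64 and 0.66 at day 7.

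The first comparison set the summed members of each injured section against day 0, to ask how much of the captured RNA was devoted to ribosomal proteins. They took 3.73% (3.72 to 3.74), 9.61% (9.59 to 9.62), 11.97% (11.96 to 11.98) and 5.96% (5.95 to 5.97) of all UMIs on days 0, 1, 3 and 7. The share was 2.58-fold, 3.21-fold and 1.598-fold that of day 0 on days 1, 3 and 7. In this share the section at day 3 was thus the highest and the uninjured section the lowest. Day 1 was close below day 3, and the order of this pair depended on the scale, as given further on. In UMIs per spot the order was another one: a spot held on average 777, 604, 2217 and 822 ribosomal protein UMIs on days 0, 1, 3 and 7, beside 20045, 5686, 16308 and 12975 UMIs of all other genes. At day 1 ribosomal protein UMIs per spot were therefore fewer than at day 0 while all other UMIs were fewer by more, and only at day 3 were they clearly more numerous. UMIs per spot also depend on capture and sequencing depth, which cannot be told apart from RNA content here. Within UMIs outside mitochondrial, haemoglobin and adult myofibre genes, whose total changed with the days, the share was 6.45%, 14.4%, 15.2% and 8.31%, in the same order of days.

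**Figure D1:**
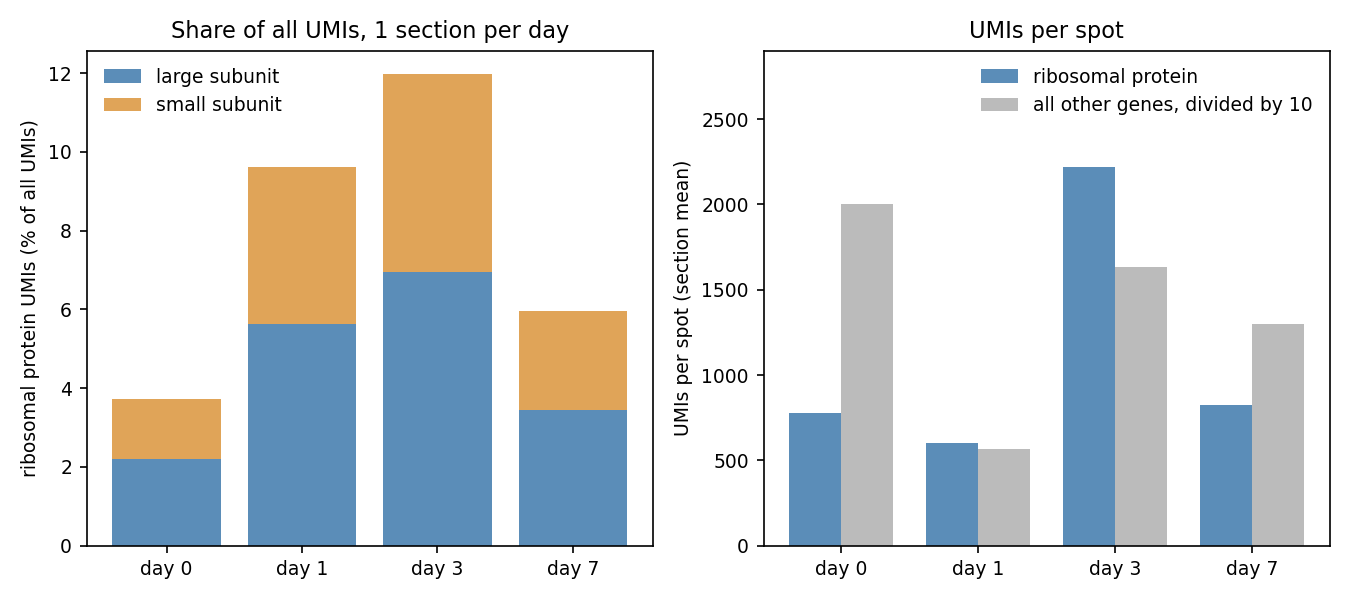
Left, ribosomal protein UMIs as a percentage of all UMIs of a section, stacked by subunit; right, mean UMIs per spot of ribosomal protein genes and of all other genes, the latter divided by 10. The share was highest at day 3 (11.97%) and higher at day 1 than at day 0 (9.61% against 3.73%), although UMIs per spot were lower at day 1 (604) than at day 0 (777).

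The change was shared by nearly the whole set. A member was called where its ratio of CPM (UMIs of a gene over all UMIs of the section, scaled to a fixed total) to day 0 was at least 1.5 in either direction and its counting interval excluded 1. At day 1, 81 of 82 members were higher, against 24.2% of all 17250 features with at least 10 UMIs and 33.2% of the 2421 features with a mean of at least 50 CPM. At day 3, 81 were higher, against 42.8% and 44.5% of these features. At day 7, 50 were higher, against 46.7% and 35.4%, and 31 passed neither threshold. A single member, Rpl3l, was lower on each of the 3 days, against 13.9%, 11.1% and 2.96% of all features and 18.3%, 15.4% and 5.08% of those at 50 CPM. At a fold of 2 the higher members numbered 74, 80 and 7 on days 1, 3 and 7, beside 14.8%, 29% and 28.3% of all features. All 3 comparisons share the day 0 section. The median log2 ratio of the members was 1.38, 1.64 and 0.65 on days 1, 3 and 7, and that of all features was 0.27, 0.55 and 0.64. At day 7 the members were therefore as far above day 0 as the middle of all features was. The median of the features with a mean of at least 50 CPM was 0.24, 0.47 and 0.36, below that of the members on each day.

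The day 7 difference and the order of days 1 and 3 depended on the scale. TMM factors, which centre on the bulk of genes, moved every log2 ratio by -0.19, -0.55 and -0.61 on days 1, 3 and 7. The log2 ratio of the summed members was then 1.18 at day 1 and 1.13 at day 3. That of the median member was 1.19 and 1.09, so day 1 was the higher with these factors. On that scale 81 of 82 members were above 0 at days 1 and 3, but at day 7 47 were above and 35 below 0, and the count of higher members at day 7 went from 50 to 2 (Rpl3 and Rpl39l). With a total outside mitochondrial, haemoglobin and myofibre genes it was 12. All features move by the same shifts, and the counts on these scales were not made over all features. They therefore do not set the members apart from other genes. Every other member given as higher at day 7 in the following was under 1.5-fold on the TMM scale, and members with small ratios in CPM at day 7 were below day 0 on it.

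**Figure D2:**
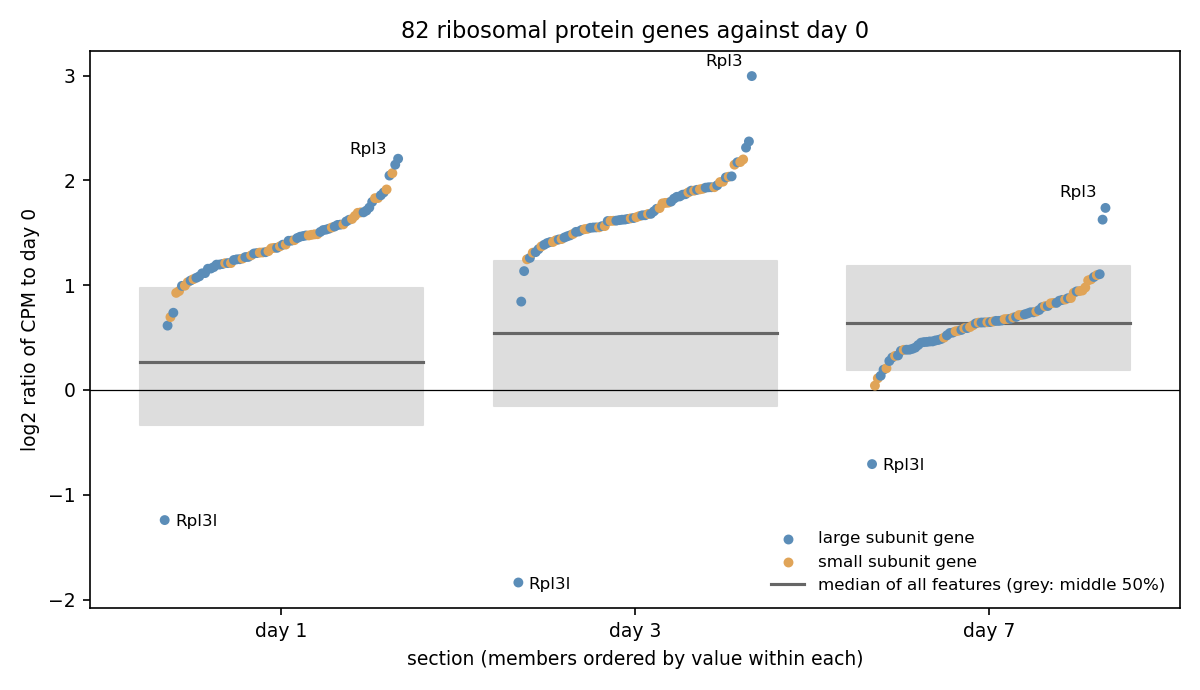
Log2 ratio of CPM to day 0 for each of the 82 members (points, ordered by value within a section, large subunit in blue and small subunit in orange), beside the median and middle 50% of all features. Nearly all members lay above the median of all features at days 1 and 3 and around it at day 7, where TMM scaling put 35 of 82 below 0; Rpl3l was the only member below 0 on the scale shown.

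Both subunits moved by like amounts. The large subunit genes summed to 2.55-fold, 3.15-fold and 1.57-fold of day 0 on days 1, 3 and 7, and the small subunit genes to 2.61-fold, 3.29-fold and 1.64-fold. The ratio of large to small subunit UMIs was 1.45, 1.42, 1.39 and 1.38 on days 0, 1, 3 and 7, lower in each injured section than at day 0. The large subunit sum includes Rpl3l, which was 507, 215, 142 and 311 CPM on these days. The ratio without Rpl3l was not computed, so it is not read as a shift between subunits. The members did differ among themselves by more than counting error. Over the 81 members with at least 1000 UMIs the SD of log2 ratios was 0.42, 0.50 and 0.30 on days 1, 3 and 7, where the median half-width of a member's counting interval was 0.0294, 0.0235 and 0.0272. In CPM, 79 of 82 members had their highest value at day 3. Rpl24 was highest at day 1 and Rpl3l at day 0. Neither the share of all features with a peak at day 3 nor the count of members with TMM factors was worked out. From day 1 to day 3 the median member changed in CPM by 0.27 on the log2 scale, and from day 3 to day 7 by -1.05. With TMM factors the median ratio to day 0 was 1.19 at day 1 and 1.09 at day 3, without such a rise.

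The pair of Rpl3 and Rpl3l held the ends of the range. Rpl3 (ENSMUSG00000060036, chr15:80077781-80083406), the general form, was 112, 497, 893 and 374 CPM on days 0, 1, 3 and 7. Rpl3l (ENSMUSG00000002500, chr17:24727826-24736143), the striated muscle form, was 507, 215, 142 and 311 CPM. Rpl3 was lowest in the uninjured section and Rpl3l was highest there, and each was at its other extreme at day 3. The log2 ratios of Rpl3 were 2.15 (2.10 to 2.20), 2.99 (2.95 to 3.04) and 1.74 (1.69 to 1.78) on days 1, 3 and 7. These were the highest of all members with at least 100 UMIs in a compared section. Those of Rpl3l were -1.24 (-1.29 to -1.19), -1.84 (-1.87 to -1.80) and -0.71 (-0.74 to -0.68), the lowest of all members on each day. On every scale tried, Rpl3 remained above and Rpl3l below day 0. As a share of the UMIs of both genes, Rpl3l made up 81.9% (81.4 to 82.4), 30.2% (29.3 to 30.99), 13.7% (13.4 to 14.003) and 45.4% (44.8 to 45.99) on days 0, 1, 3 and 7. This share was not divided by transcript length and was compared only between sections. The elongation factor pair outside the members, of which Eef1a2 is the muscle and neuron form, gave Eef1a2 shares of 73.99%, 19.9%, 12.7% and 41.5%. Both muscle forms were thus lowest within their pair at day 3 and lay between days 0 and 1 at day 7. The adult myofibre share of UMIs moved the same way, and its part in these shares was not tested beyond the strata of spots given further on.

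Among other large subunit genes, Rpl10, which joins the subunit late in its assembly, was 170, 702, 766 and 187 CPM on days 0, 1, 3 and 7, with log2 ratios of 2.05 (2.004 to 2.09), 2.17 (2.14 to 2.21) and 0.14 (0.09 to 0.18). Rpl10 was high at days 1 and 3 and in CPM near its uninjured level at day 7, while with TMM factors it was below that level. Rpl12, a protein at the base of the ribosomal stalk, was 351, 1296, 1319 and 556 CPM, with day 1 and day 3 log2 ratios of 1.88 (1.85 to 1.91) and 1.91 (1.88 to 1.93). Rpl41, the smallest protein of the ribosome, was 866, 2322, 4478 and 1661 CPM. Its ratio was near the median member at day 1 (1.42, 1.40 to 1.44) and next to that of Rpl3 at day 3 (2.37, 2.36 to 2.39). At the other end, Rpl31 was 425, 708, 1057 and 581 CPM, Rpl24 was 584, 1338, 1281 and 922 CPM and Rpl4 was 428, 883, 1025 and 596 CPM. Rpl31 was among the 5 lowest ratios at day 1 (0.74, 0.70 to 0.77), and Rpl24 and Rpl4 were among the 5 lowest at day 3 (1.13, 1.11 to 1.15, and 1.26, 1.24 to 1.28). All these nevertheless passed 1.5-fold on those days. At day 7 the highest large subunit ratios after Rpl3, among members with at least 100 UMIs, were those of Rpl19, 499, 1148, 1556 and 1073 CPM (1.10, 1.08 to 1.13), and Rpl13a, 559, 1345, 1712 and 1179 CPM (1.08, 1.06 to 1.10), a protein also known to leave the ribosome and silence inflammatory mRNAs in macrophages.

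The stalk proteins Rplp0, Rplp1 and Rplp2, which recruit elongation factors, were lower than the median member at day 3 or close to it. Rplp0 was 664, 1641, 1734 and 1181 CPM, Rplp1 1383, 3540.4, 4049 and 2537 CPM and Rplp2 539, 1497, 1661 and 801 CPM, with day 3 log2 ratios of 1.39, 1.55 and 1.62. Rpl5 and Rpl11, which carry the 5S RNA and bind the p53 regulator Mdm2 when ribosome assembly fails, differed: Rpl5 was 318, 737, 982 and 421 CPM and Rpl11 was 370.1, 1237, 1509 and 668 CPM. Their log2 ratios were 1.21 (1.18 to 1.25) and 1.74 (1.71 to 1.77) at day 1 and 1.63 (1.60 to 1.65) and 2.03 (2.004 to 2.05) at day 3, with Rpl11 the higher of the pair on both days and intervals that did not overlap. Rplp0 and Rpl11 were outside the naming rule and were chosen after their values were seen.

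Of the small subunit, Rps18 and Rps19, both of the head of the subunit (Rps19 is the gene most often mutated in Diamond-Blackfan anaemia), were among the 5 highest ratios on days 1 and 3. Rps18 was 258, 1081, 1164 and 381 CPM on days 0, 1, 3 and 7, with log2 ratios of 2.07 (2.03 to 2.10), 2.17 (2.15 to 2.20) and 0.57 (0.53 to 0.60). Rps19 was 344, 1295, 1579.9 and 654 CPM, with log2 ratios of 1.91 (1.88 to 1.94), 2.20 (2.17 to 2.22) and 0.93 (0.90 to 0.96). For both, day 3 was above day 1 by less than day 7 was below it. Rps2, at the mRNA entry channel, went from 439 CPM to 1562, 1655 and 452 CPM. At day 7 it was, in CPM, the member nearest to its uninjured value (0.042, 0.013 to 0.071), but with TMM factors it was below day 0, and with DESeq2 size factors it was lower by 1.5-fold. The day 1 ratios of Rps29 (1089, 1764, 3161 and 1420 CPM) and of Rps4x, an X-linked member (415, 789.7, 1203 and 756 CPM), were among the 5 lowest. Rps10 (387, 991, 1289.7 and 828 CPM) and Rps9 (448, 1113, 1545 and 932 CPM) were among the 5 highest at day 7, with log2 ratios of 1.10 (1.07 to 1.12) and 1.06 (1.03 to 1.08). Rpsa, which also serves as a laminin receptor at the cell surface, was 709, 1758, 1989 and 1462 CPM, and its day 7 log2 ratio was 1.05 (1.03 to 1.06).

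The other paralogs were studied as shares of their pairs. Rps27l, a p53 target, made up 25.6% (25.1 to 26.2), 24.7% (24.2 to 25.2), 20.03% (19.8 to 20.3) and 20.3% (19.9 to 20.7) of Rps27l and Rps27 UMIs on days 0, 1, 3 and 7. Rpl22l1 made up 41.6%, 33.4%, 34.7% and 35.9% of its pair with Rpl22, and Rpl7l1, a relative of Rpl7 found in preribosomes, 11.2%, 8.31%, 7.495% and 9.04%. All 3 shares were highest in the uninjured section, where for Rps27l the day 1 value lay close to it. None of these changed as far as the share of Rpl3l. Rpl39l, the testis form of Rpl39, had 17, 30, 108 and 50 UMIs, too few for more than its direction: its log2 ratio was 2.21 (1.30 to 3.16), 2.31 (1.57 to 3.14) and 1.63 (0.81 to 2.51) on days 1, 3 and 7.

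Several members have near-identical copies in the genome, and how the counting divided reads between a gene and its copy was not tested, so that their own values are uncertain. Rpl9-ps6 took 15.1%, 3.502%, 5.69% and 29.2% on days 0, 1, 3 and 7 of the UMIs counted for it and Rpl9 together. Rpl10-ps3 took 12.6%, 2.82%, 5.96% and 22.4% on days 0, 1, 3 and 7 of its pair with Rpl10, and Rps27rt 8.33%, 4.39%, 5.56% and 13.1% on days 0, 1, 3 and 7 of its pair with Rps27. The same order of sections, lowest at day 1 and highest at day 7, was seen for all of these and for Rpl36a-ps1, at 1.86%, 0.902%, 1.32% and 2.68% on days 0, 1, 3 and 7. With the copy added, the day 7 log2 ratio of Rpl9 was 0.54 in place of 0.28 and that of Rpl10 was 0.31 in place of 0.14. At day 1 these were 1.67 in place of 1.86 and 1.89 in place of 2.05. The ratios of both members were thus different with and without the UMIs of the copy. Members with 5 or more -ps symbols in the RefSeq gene table had a median log2 ratio of 1.54, 1.75 and 0.49 on days 1, 3 and 7 (n = 24), and members with none had 1.26, 1.59 and 0.70 (n = 18). The part of shared reads in these differences was not tested.

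**Figure D3:**
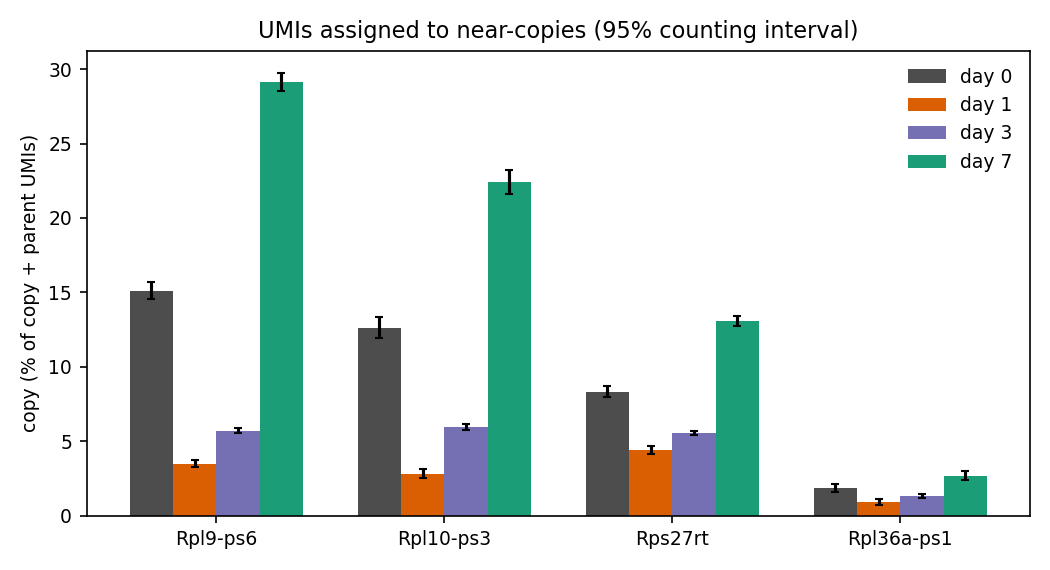
UMIs assigned to a near-copy as a percentage of the UMIs of copy and parent gene in each section, with 95% Clopper-Pearson intervals for counting error. In all 4 pairs the percentage was lowest at day 1 and highest at day 7, from 3.502% to 29.2% for Rpl9-ps6.

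The next comparison asked where in each section the members were high. Over single spots the ribosomal protein share at day 0 ran from 2.36% to 8.96% with a median of 3.63%. At day 1 it ran from 1.68% to 20.1% with a median of 9.295%, at day 3 from 3.55% to 23.5% with a median of 9.33%, and at day 7 from 2.03% to 12.9% with a median of 4.87%. The medians of days 1 and 3 were alike, but the middle 50% of spots lay between 7.95% and 10.7% at day 1 and between 7.15% and 13.7% at day 3. At day 0 they lay between 3.37% and 3.98%, so uninjured muscle was the most even of the sections. Spots thinned to 2000 UMIs each, which removes differences in depth, had medians of 3.63%, 9.49%, 9.36% and 4.93%.

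**Figure D4:**
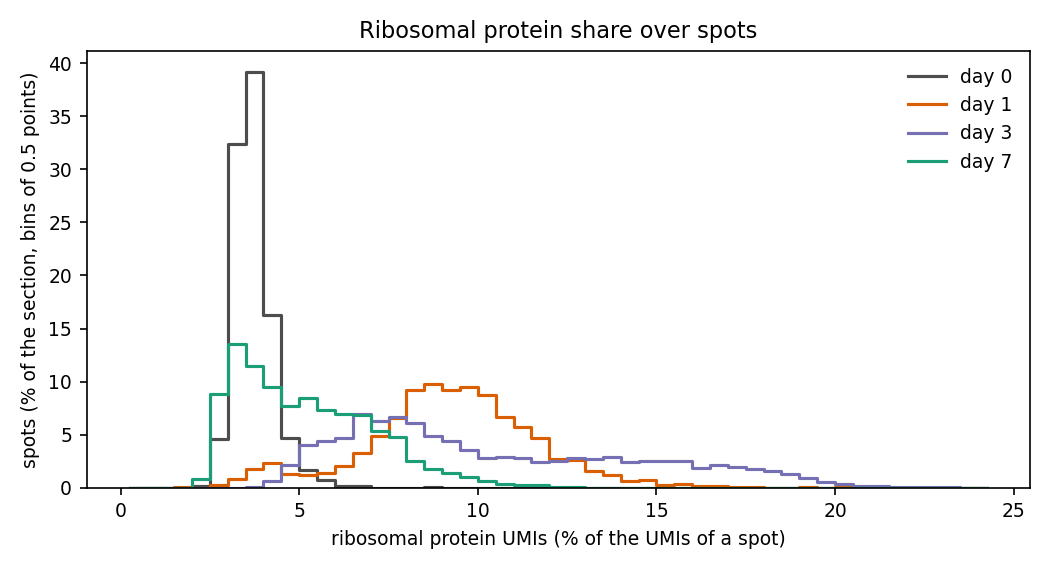
Distribution over spots of the ribosomal protein share of a spot's UMIs, as a percentage of the spots of each section in bins of 0.5 percentage points. Day 0 was narrow around 3.63%, day 1 lay mostly above it, day 3 was broad up to 23.5%, and day 7 reached from the range of day 0 upwards.

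Spots of each section were then split into 4 equal strata by their share of adult myofibre UMIs. At day 0 the ribosomal protein share was almost level, 3.83% in the stratum with the least and 3.62% in that with the most myofibre RNA. At day 1 it went from 10.9% to 8.77%, at day 3 from 16.4% to 6.51% and at day 7 from 7.84% to 4.24%. At day 1 the members were thus above day 0 in all 4 strata, though single spots went as low as 1.68%. At day 3 they were highest in the stratum with the least myofibre RNA. Because all shares of a spot add up to the same total, the strata were also read outside mitochondrial, haemoglobin and myofibre UMIs. There the share from the lowest to the highest stratum was 13.7% to 14.6% on day 1. It went from 17.4% down to 10.6% on day 3 and from 9.07% down to 7.06% on day 7, while the uninjured section had 6.195% and 6.61%. The slope of day 1 was not kept on this measure, and those of days 3 and 7 were. Since the strata differ between days, spots with a myofibre share of at least 20% were set side by side, a choice made after seeing the data. Ribosomal protein genes took 3.701% of their UMIs at day 0 (n = 2031 spots), 8.77% at day 1 (n = 576), 6.26% at day 3 (n = 624) and 4.46% at day 7 (n = 1177). In these spots day 1, and not day 3, was the highest section.

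The Rpl3l share of its pair followed the strata in every section. It was 77.3% in the stratum with the least and 86.1% in the stratum with the most myofibre RNA at day 0. At day 1 it was 13.6% (12.3 to 14.99) and 48.1% (46.4 to 49.9), at day 3 1.404% (1.27 to 1.55) and 46.8% (45.4 to 48.2), and at day 7 18.3% and 73.6%. The Eef1a2 share in the same strata went from 65.9% to 82.3% at day 0 and from 2.404% to 51.9% at day 3. Even where myofibre RNA was most abundant, the Rpl3l share was lower after injury than at day 0: in spots with a myofibre share of at least 20% it was 82.6%, 49.1%, 49.3% and 69.7% on days 0, 1, 3 and 7, with mean myofibre shares of 28.9%, 23.02%, 23.5% and 23.4%. In those spots the myofibre share at day 0 was itself higher than on the other days. In CPM, Rpl3l in the highest stratum was 514, 283, 297 and 445 on the 4 days, and Rpl3 there was 82.6, 305, 337 and 159. Rpl3l was thus lower and Rpl3 higher after injury in the highest stratum. The myofibre share of that stratum was 34.0%, 22.6%, 22.7% and 24.9% on days 0, 1, 3 and 7, so it was not like tissue across days. The lowest stratum of day 0, with a myofibre share of 22.4%, held 492 CPM of Rpl3l and 145 CPM of Rpl3. The day 7 values of the highest stratum were near these, and those of days 1 and 3 lay further away.

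**Figure D5:**
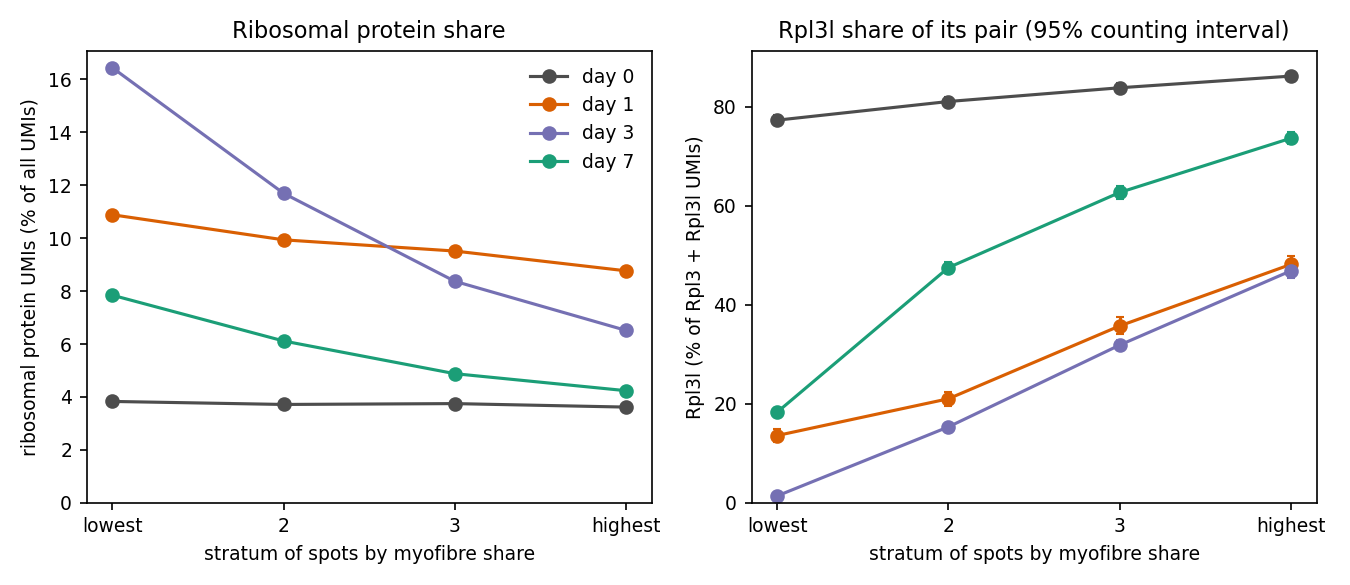
Ribosomal protein share of UMIs (left) and Rpl3l as a percentage of Rpl3 and Rpl3l UMIs (right) in strata of the spots of each section, ordered by the share of adult myofibre UMIs; bars on the right are 95% counting intervals. At day 3 the ribosomal protein share went from 16.4% to 6.51% and the Rpl3l share from 1.404% to 46.8%, while day 0 was nearly level on the left.

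Single members were compared between the strata with the most and the least myofibre RNA. The median ratio of CPM in the myofibre-rich over the myofibre-poor stratum, over the 81 members with at least 1000 UMIs, was 0.939, 0.829, 0.399 and 0.542 on days 0, 1, 3 and 7. Counting intervals put 45, 65, 80 and 80 members lower in the myofibre-rich stratum on the 4 days, and 3, 6, 1 and 1 higher. The same count was not made over all features. More myofibre RNA lowers the share of every other gene, so these counts do not set the members apart from other genes. The member higher there at days 3 and 7 was Rpl3l, with ratios of 14.98 (13.5 to 16.7) and 3.07 (2.91 to 3.25), after 1.05 (1.01 to 1.09) at day 0 and 2.23 (1.98 to 2.51) at day 1. Rpl3 had the lowest ratio of all 81 members in every section, 0.571 (0.526 to 0.62), 0.377 (0.354 to 0.403), 0.242 (0.233 to 0.252) and 0.247 (0.233 to 0.261). Rps12 (0.257 at day 3 and 0.399 at day 7), Rpl41 (0.268 and 0.402) and Rpl39 (0.297 and 0.424) were among the 5 lowest on both late days. At day 1 Rpl5 (0.556), Rps3a1 (0.59) and Rpsa (0.603) were among the lowest. At the other end Rpl35 (1.05) was level with Rpl3l at day 0, with Rpl13 (1.04) next, and Rpl3l was followed by Rpl29 (1.09) and Rpl28 (1.08) at day 1, Rpl24 (0.609) and Rps14 (0.609) at day 3, and Rps27l (0.866) and Rps25 (0.768) at day 7. The names at that end changed from section to section, while Rpl3 was lowest in all 4 and Rpl3l highest in the 3 injured ones.

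Members varied together over spots. After thinning each spot to 2000 UMIs, which left out 17, 513, 9 and 84 spots of the 4 sections, Spearman's rho of each member with the sum of the other members was above 0 for 80 of 81 members in every section, with medians of 0.0844, 0.315, 0.479 and 0.337 on days 0, 1, 3 and 7. Rpl3l was the exception in every section (-0.0377, -0.0909, -0.329 and -0.227), and Rpl41 had the highest value, up to 0.784 at day 3. Spots share a library and their shares a common total, and sparse counts lower rho, so these are descriptions without a p.

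The members were then related to marker lists of the cell types a spot can hold. With the macrophage list (Cd68, Adgre1, Csf1r, C1qa and others), whose sum was 419, 1525, 7800.1 and 2071 CPM on the 4 days, the members had a rho of 0.127 (range 0.0975 to 0.145), 0.38 (range 0.351 to 0.392), 0.824 (range 0.817 to 0.831) and 0.467 (range 0.457 to 0.492) on days 0, 1, 3 and 7, the ranges being those over 10 draws. With the adult myofibre list rho was -0.129 (range -0.157 to -0.104), -0.264 (range -0.272 to -0.256), -0.877 (range -0.878 to -0.874) and -0.592 (range -0.599 to -0.584). The day 3 section thus had the strongest relation of both signs. Outside mitochondrial, haemoglobin and myofibre UMIs the macrophage values were 0.0595, 0.127, 0.689 and 0.293. At day 3 the cell cycle list gave 0.526 (0.379 outside), the regenerating muscle list (Myh3, Myog and others) 0.406 (0.333 outside) and the MSC list (mesenchymal stem cell, Pdgfra, Prrx1 and others) 0.356 (0.10 outside). At day 7 the chondrogenic list (Sox9, Acan, Col2a1 and others) gave 0.443 (0.189 outside), the tendon list 0.394 (0.214 outside) and the osteogenic list 0.338 (0.161 outside). The 13 mitochondrially encoded genes ran against the members in every section, at -0.256, -0.594, -0.70 and -0.796. Which cells carried the ribosomal protein RNA was not tested.

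The 10% of spots with the highest share of a list, called rich in it here, were set against the rest of the section. In the macrophage-rich spots they took 16.4% of UMIs at day 3 against 11.1% in the rest, a ratio of 1.47 (1.47 to 1.48). On days 0, 1 and 7 the ratio was 1.17 (1.17 to 1.18), 1.14 (1.13 to 1.15) and 1.53 (1.53 to 1.54). Macrophage-rich spots were thus higher in every section, but outside mitochondrial, haemoglobin and myofibre UMIs the day 1 ratio was 0.896, below 1, and those of days 0, 3 and 7 were 1.08, 1.16 and 1.298. The macrophage-rich spots of day 1 were also shallow, with a median of 1836 UMIs per spot against 6796 in the rest. In the regenerating muscle-rich spots the ratio on days 3 and 7 was 1.46 (1.46 to 1.46) and 1.51 (1.51 to 1.51) (1.26 and 1.34 outside), after 1.04 (1.03 to 1.04) at day 0. These spots were deep, with medians of 28096 UMIs at day 3 and 22894 at day 7 against 14818 and 11574. In the cell cycle-rich spots it was 1.45 (1.45 to 1.45) and 1.24 (1.23 to 1.24) on these days (1.16 and 0.973 outside). In the chondrogenic-rich spots of day 7, where cartilage RNA had appeared, the members took 7.398% against 5.796%, a ratio of 1.28 (1.27 to 1.28) that came to 0.989 outside. In the adult myofibre-rich spots the ratio was 0.948 (0.943 to 0.953), 0.886 (0.882 to 0.89), 0.468 (0.465 to 0.47) and 0.673 (0.67 to 0.677). For the neutrophil, lymphocyte, MSC, osteogenic, endothelial, red cell, adipocyte, tendon and Schwann cell lists, in the sections where a list had at least 500 UMIs, the ratios lay between 0.803 and 1.32. The skin epithelium list had under 500 UMIs in each section and gave rho between 0.00187 and 0.0353.

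The Rpl3l share of its pair was also read in these spots. At day 7 it was 77.8% in the adult myofibre-rich spots, the highest of the lists, and 14.6% in the chondrogenic-rich spots, the lowest. The macrophage-rich spots had 21.3%, the regenerating muscle-rich spots 25.7% and the MSC-rich spots 26.2%. The lymphocyte-rich spots had 58.3%, the red cell-rich spots 55.04% and the Schwann cell-rich spots 47.2%, with adult myofibre shares of 18.9%, 17.3% and 15.7%, so the share did not separate regenerating muscle from other spots. At day 3 it was 52.6% in the adult myofibre-rich, 4.28% in the regenerating muscle-rich and 1.205% in the macrophage-rich spots. Spots with new muscle RNA thus held little Rpl3l at day 3, with an adult myofibre share of 4.06%, and more at day 7, with one of 14.6%.

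Other genes of the translation machinery gave a background for the members. Of 20 other TOP genes, which encode elongation and initiation factors and ribosome partners, 12, 19 and 11 on days 1, 3 and 7 were higher by 1.5-fold, with median log2 ratios of 0.74, 0.89 and 0.66, under those of the members at days 1 and 3. The share of all features called higher on these days was 24.2%, 42.8% and 46.7%. Eef1a1, the general elongation factor, was 469.7, 1190.1, 2589 and 1349.5 CPM on days 0, 1, 3 and 7, Npm1, a nucleolar chaperone, 84.7, 249.6, 466 and 138 CPM, and Rack1, a scaffold on the small subunit, 391, 903, 1127 and 880.2 CPM. Over thinned spots the sum of these genes had a rho with the members of 0.171, 0.511, 0.84 and 0.709 in the order of days. Of 26 genes of ribosome biogenesis, 19, 22 and 9 on days 1, 3 and 7 were higher and 0 lower, with medians of 0.81, 1.10 and 0.48. At day 7 their share of higher genes was below that of all features (46.7%). Myc, which drives ribosome production, was 5.52, 32.2, 32.5 and 20.9 CPM, Ncl (nucleolin) 103, 251, 329 and 170.4 CPM, Fbl (fibrillarin) 23.3, 56.9, 85.5 and 32.7 CPM and Nhp2, of the H/ACA particles, 38.9, 151, 131 and 67.6 CPM. Nhp2 and Myc were near their highest already at day 1, and Fbl and Ncl reached theirs at day 3.

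Among 14 genes of translation control, 4, 5 and 4 on days 1, 3 and 7 were higher and 2, 2 and 1 were lower, with medians of -0.16, 0.38 and 0.32. Of all features, 24.2%, 42.8% and 46.7% were higher and 13.9%, 11.1% and 2.96% lower on these days. With so few genes the counts were not read as a trait of this list. Eif4ebp1, a repressor of cap-dependent translation, was 58.2, 276, 196 and 65.02 CPM, and Ddit4, a stress-induced inhibitor of mTOR, was 148, 15.7, 44.4 and 39.8 CPM. Sesn2, another inhibitor of mTOR, was 1.596, 4.05, 7.63 and 4.18 CPM. These moved in different directions, Eif4ebp1 and Sesn2 upwards and Ddit4 downwards at day 1, and Larp1 itself was 61.95, 58.7, 70.2 and 70.6 CPM. The 78 mitochondrial ribosomal protein genes (Mrpl and Mrps), which serve the organelle's own ribosomes, had 18, 17 and 3 on days 1, 3 and 7 higher and 0 lower, with medians of 0.30, 0.36 and -0.0024. Their shares of higher genes were below those of all features on each day (24.2%, 42.8% and 46.7%). Their sum was 1.32-fold, 1.33-fold and 1.01-fold of day 0, beside 2.58-fold, 3.21-fold and 1.598-fold for the cytosolic members. On the TMM scale all these ratios are lower by the shifts given above.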

How the data were processed

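Spatial libraries (10x Genomics capture arrays read from the 3′ end of poly(A) RNA) were deposited by the authors as raw UMI counts per feature and spot, with no normalization. The file headers name Space Ranger 1.2.0, while Cell Ranger 5.0.0, mm10 and the STAR aligner stand in the labels. The study's methods give a further release, and which one made the files was not settled. Every value was a whole number, all 10835 spots were used, and no doublet caller was run because a spot holds several cells. The members, lists and comparisons were chosen with earlier results of these data known.

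UMIs were summed per section and scaled to CPM. Ratios to day 0 have exact conditional binomial intervals, shares Clopper-Pearson intervals and levels Poisson intervals at 95%, for counting error only. A count under 3 was entered as 3. Features with at least 10 UMIs numbered 17250. Spots were thinned to 2000 UMIs in 10 draws (seed 1). Spots were split by the share of a marker or state list (adult myofibre, regenerating muscle, monocyte/macrophage, neutrophil, lymphocyte, MSC, chondrogenic, osteogenic, endothelial, red cell, adipocyte, tendon, Schwann cell, skin epithelium and cell cycle). Named members were, for each injured day, the 5 highest and 5 lowest ratios among members with at least 100 UMIs in that section or at day 0, the 5 at each end between myofibre strata, the paralogs and their partners, and list genes. Other settings tried were TMM factors, DESeq2 size factors, totals without mitochondrial genes or without mitochondrial, haemoglobin and myofibre genes, spots of at least 2000 UMIs, the mean over spots, other filters and folds, thinning to 1000 or 4000 UMIs and the top 20% of spots. Counts of 17250 genes were also simulated at these depths with counting error only. The 200 changed genes were drawn from those with at least 100 expected UMIs in the shallower section. In each comparison 100% of them had a ratio near the true fold. The interval held the true fold for 98% at day 1, 93.5% at day 3 and 97% at day 7. Changed genes with fewer UMIs and differences between animals were not covered. Chromosomal positions are those of RefSeq on GRCm38.p6. Spot positions and images were not used here. Scaling factors came from edgeR 4.0.16 and from DESeq2 1.42.0 under R 4.3.3. All other steps ran in Python 3.11.15 with pandas 2.3.3, SciPy 1.17.1 and NumPy 2.4.6, and plots were drawn by matplotlib 3.10.9. Results for some genes are not reported here.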

Additional observations from a re-analysis of the deposited data

Results flagged for a closer look

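Some features that the symbol rule leaves out, near-copies of members, held UMIs in every section. Over the 4 sections Rpl9-ps6 had 13971 UMIs, Rps27rt 13198, Rpl10-ps3 6404 and Rpl36a-ps1 1230, all above the 3 UMIs that a count of 0 allows. They were listed as signal outside the main measurement.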

How the results depend on the processing

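No paired analysis was possible because each day had 1 section, and no section could be left out for the same reason. Among the members, depth limited Rpl39l most, with the fewest UMIs. The log2 ratio of the summed members, 1.36, 1.68 and 0.68 on days 1, 3 and 7, was 1.18, 1.13 and 0.068 with TMM factors, 1.17, 1.12 and 0.041 with DESeq2 size factors, 1.16, 1.23 and 0.37 without mitochondrial, haemoglobin and myofibre UMIs, 1.44, 1.65 and 0.65 without mitochondrial UMIs, 1.32, 1.501 and 0.48 as a mean over spots and 1.25, 0.76 and 0.27 in spots with a myofibre share of at least 20%, a setting chosen after seeing the data; in spots of at least 2000 UMIs it was 1.37 at day 1. The median member was 1.19, 1.09 and 0.039 with TMM factors, 1.18, 1.09 and 0.013 with size factors, 1.17, 1.197 and 0.34 and 1.45, 1.61 and 0.62 with these totals, 1.39, 1.66 and 0.65 without the paralogs, and 1.39 and 1.64 at days 1 and 3 with no filter. Every direction of the sums and medians against day 0 was kept. The sum of day 1 was above that of day 3 with TMM factors, with size factors and in spots with a myofibre share of at least 20%. The count of higher members at day 7, 50, came to 2 with TMM factors, 2 with size factors, 12 without mitochondrial, haemoglobin and myofibre UMIs and 7 at a fold of 2. The count of lower members, 1, came to 2 with size factors and 0 at a fold of 2. On these other scales neither count was made over all features. Outside mitochondrial, haemoglobin and myofibre genes the median share per spot was 6.37%, 13.7%, 13.03% and 6.96% at days 0, 1, 3 and 7. Day 1 was thus above day 3 in the median spot, unlike in the section totals. Thinned to 1000 and 4000 UMIs, rho with the macrophage list was 0.0921 and 0.173 at day 0, 0.275 and 0.453 at day 1, 0.766 and 0.857 at day 3 and 0.375 and 0.552 at day 7, and with the myofibre list -0.208 and -0.305 at day 1, -0.864 and -0.881 at day 3 and -0.569 and -0.609 at day 7. Outside the named genes rho with the macrophage list was 0.0595, 0.127, 0.689 and 0.293, and it turned negative for the MSC list at days 1 and 7 (-0.0513 and -0.0442), the endothelial list at days 0, 1 and 7 (-0.0345, -0.0698 and -0.0786), the adipocyte list at day 1 (-0.133), the Schwann cell list at day 7 (-0.035) and the mitochondrial ribosomal protein genes at days 3 and 7 (-0.137 and -0.0795). For the chondrogenic, osteogenic, skin epithelium and cell cycle lists at day 0 and the adipocyte list at day 7 it also changed sign, from values whose range over draws held 0. With the top 20% of spots in place of the top 10%, the log2 level over the rest was 0.16, 0.24, 0.66 and 0.58 for the macrophage list and -0.0655, -1.02 and -0.60 at days 0, 3 and 7 for the myofibre list, and it changed sign for lymphocyte spots at day 0 (0.0216), osteogenic spots at day 3 (0.078) and Schwann cell spots at day 3 (0.0167). Outside mitochondrial, haemoglobin and myofibre UMIs the log2 level in the top 10% of spots was 0.11, 0.22 and 0.38 for the macrophage list at days 0, 3 and 7 and -0.66 and -0.26 for the myofibre list at days 3 and 7. On that measure it changed sign for the myofibre list at days 0 and 1 (0.0301 and 0.0273) and, at day 1, for the macrophage (-0.16), MSC (-0.0516), endothelial (-0.0582), adipocyte (-0.14) and cell cycle (-0.0452) lists. It also did so for the endothelial (-0.00439) and cell cycle (-0.00741) lists at day 0, the lymphocyte list at day 3 (-0.0153) and the chondrogenic (-0.0162), osteogenic (-0.0386), endothelial (-0.0821) and cell cycle (-0.0396) lists at day 7. The cause was not tested.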
